A study of Mus musculus with 4 samples.

Results

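Serum response factor (Srf), its coactivators Mkl1 and Mkl2, and 7 genes of the contractile cytoskeleton (Acta2, Tagln, Cnn1, Tpm1, Myh11, Myh9 and Myh10) were followed by chromatin accessibility through the differentiation of cultured mouse fat precursors. All peaks with a summit inside one of these 10 genes, or within 50 kb of any of their annotated start sites, were taken from the 4 deposited peak lists. Overlapping peaks were merged into sites, which gave 202 sites, from 501 peaks, out of 100608 sites in the genome. No site fell in the windows of more than 1 of the genes, and 114 of the 202 sites lay outside the gene bodies. The genes were chosen by name from their known pathway, and selected on earlier results of these same libraries, namely their peak heights at D0 and D8, so the direction of their changes with differentiation is a description and not an independent finding. Their genotype differences within a day are descriptive as well, since each group was a single library.

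The cells, called im-scWAT, came from the stromal vascular fraction of mouse subcutaneous white fat and were immortalised with the SV40 large T antigen. Wild-type cells (Jmjd1a +/+, WT) were compared with cells from Jmjd1a HY/HY mice (HY), whose JMJD1A has a catalytic histidine replaced by tyrosine and lacks H3K9 demethylase activity, to ask how that activity bears on beige adipocyte formation. Both were examined as confluent preadipocytes before differentiation (D0) and as beige adipocytes on day 8 (D8), after induction with indomethacin, dexamethasone, 3-isobutyl-1-methylxanthine, rosiglitazone, insulin and T3, followed by insulin, T3 and rosiglitazone alone. ATAC-seq, in which a transposase cuts and tags open chromatin, gave 71523 peaks at D0 and 41228 at D8 in WT cells, and 77994 and 48964 in HY cells. With 1 library per group and no replicates, no test of a condition was made. D8 libraries were shallower, with 0.806 (WT) and 0.698 (HY) of the D0 depth. The HY lists held 7 and 6 peaks on chromosome Y against 1 in each WT list. The cultures may therefore have differed by more than the allele, which was not tested. A difference between the genotypes cannot be told apart from one between the cultures.

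SRF is a transcription factor that binds the CArG box, a short A/T-rich element between CC and GG, in the promoters and enhancers of muscle and cytoskeletal genes. Monomeric actin holds the myocardin-related coactivators encoded by Mkl1 and Mkl2 out of the nucleus, and when actin polymerises they enter it and join SRF, so that the pathway reads the state of the cytoskeleton that its target genes build. Fat precursors are spread fibroblast-like cells with actin stress fibres, which are taken apart as the cells round up and fill with lipid.

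The sequences below are those on which the results turn. They were read from the NCBIM37 assembly, which is the mm9 build of the files. The first 3 are the 200 bases before the annotated start of Acta2 (chr19:34329827-34330026), Tagln (chr9:45744142-45744341) and Srf (chr17:46693112-46693311), all on the minus strand and written 5′ to 3′ in the direction of the gene. Capitals mark CArG boxes, which in Acta2 carry 1 base other than A or T in the middle.
Acta2 promoter: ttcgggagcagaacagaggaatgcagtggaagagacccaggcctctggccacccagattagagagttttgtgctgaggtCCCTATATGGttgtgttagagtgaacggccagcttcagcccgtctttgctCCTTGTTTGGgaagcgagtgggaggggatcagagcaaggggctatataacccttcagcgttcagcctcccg
Tagln promoter: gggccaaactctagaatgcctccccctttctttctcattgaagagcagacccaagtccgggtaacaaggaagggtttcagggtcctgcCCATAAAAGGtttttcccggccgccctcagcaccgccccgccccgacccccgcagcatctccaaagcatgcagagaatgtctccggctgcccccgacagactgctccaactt
Srf promoter: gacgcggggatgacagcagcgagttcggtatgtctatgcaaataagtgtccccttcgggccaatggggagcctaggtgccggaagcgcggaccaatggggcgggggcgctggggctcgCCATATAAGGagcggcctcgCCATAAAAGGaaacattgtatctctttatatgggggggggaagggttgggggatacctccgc

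The other 4 are windows of 151 bases, plus strand, around the summit of a distal site: 10.5 kb upstream of Acta2 (chr19:34340251-34340401), 0.8 kb into Cnn1 (chr9:21904496-21904646), 53.3 kb into Mkl1 (chr15:80967850-80968000) and 42.0 kb into Myh10 (chr11:68546969-68547119). The first pair holds a CArG box at the summit, the Mkl1 window holds overlapping AP-1 and TEAD letters, and the Myh10 window belongs to the member site that opened most. Capitals mark the letters of any of 6 searched motifs that are described with their frequencies further on.
Acta2 -10.5 kb: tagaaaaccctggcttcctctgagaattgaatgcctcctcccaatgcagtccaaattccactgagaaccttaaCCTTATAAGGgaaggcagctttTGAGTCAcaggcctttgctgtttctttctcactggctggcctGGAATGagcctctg
Cnn1 +0.8 kb: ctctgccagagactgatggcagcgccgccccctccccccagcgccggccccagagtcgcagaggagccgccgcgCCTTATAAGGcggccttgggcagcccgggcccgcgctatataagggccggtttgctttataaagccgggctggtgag
Mkl1 +53.3 kb: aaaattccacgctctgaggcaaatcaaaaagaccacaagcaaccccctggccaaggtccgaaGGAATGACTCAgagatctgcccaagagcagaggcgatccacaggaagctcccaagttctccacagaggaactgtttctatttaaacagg
Myh10 +42.0 kb: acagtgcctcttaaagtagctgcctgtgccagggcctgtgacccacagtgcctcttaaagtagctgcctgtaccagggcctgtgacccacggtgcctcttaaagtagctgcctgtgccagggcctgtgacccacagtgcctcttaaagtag

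The height of a site in a library is given as its summit pileup, the whole number of tags stacked at the summit, which was solved from the deposited fold enrichment and -log10 p of the peak. For comparisons the pileup was divided by the library's genome-wide background rate (0.659 and 0.531 for WT at D0 and D8, 0.708 and 0.494 for HY), which scales for depth and is here called the level. A site is said to have opened or closed when its level at D8 was at least 2-fold above or below that at D0, and to be higher or lower in HY by the same 2-fold rule within a day. Where both libraries had a peak, the exact 95% interval of the ratio is given, which covers counting error only and not the spread between cultures. Where a library had no peak, its pileup was set at the lowest called in that list, 5 in the first 3 libraries and 4 in HY D8. In a high local background a peak can be missed at a greater height, so a stricter ratio is given beside it, in which the absent peak stands at the lowest pileup that could have been called over the local background of the other library's peak. This stricter form is called the local bound. Where 4 pileups follow each other without labels, they stand in the order WT D0, WT D8, HY D0, HY D8.

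At the promoters of the contractile genes, 4 of 10 gene starts closed by D8 in both genotypes: Acta2, Tagln, Cnn1 and Tpm1. The starts of Srf, Mkl1, Mkl2, Myh9, Myh10 and Myh11 were not called in either genotype. Counting internal promoters too, the 10 genes had 16 promoter sites of their own, with a summit from 1000 bases upstream to 100 downstream of an annotated start. The deposited fold enrichment divides the summit by its local background, after a constant is added to each. On it 0 of the 10 starts closed in both genotypes, and of the 4 only Cnn1 in HY passed the rule, at a log2 ratio of -2.31. Of the 16 sites, 5 closed in both genotypes by pileup, 4 of them also by the local bound, 1 closed in WT alone, and 0 opened in either, although 1, the second promoter of Tpm1, opened in HY on the deposited fold enrichment. Another 16 promoter sites in the windows belonged to neighbouring genes. Over all sites of the genome 13.9% closed in both genotypes, and among promoter sites high enough at D0 for a fall to be called 17.4% closed in WT and 19.2% in HY, against 32.1% and 32.3% of those in the members' windows.

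**Figure D1:**
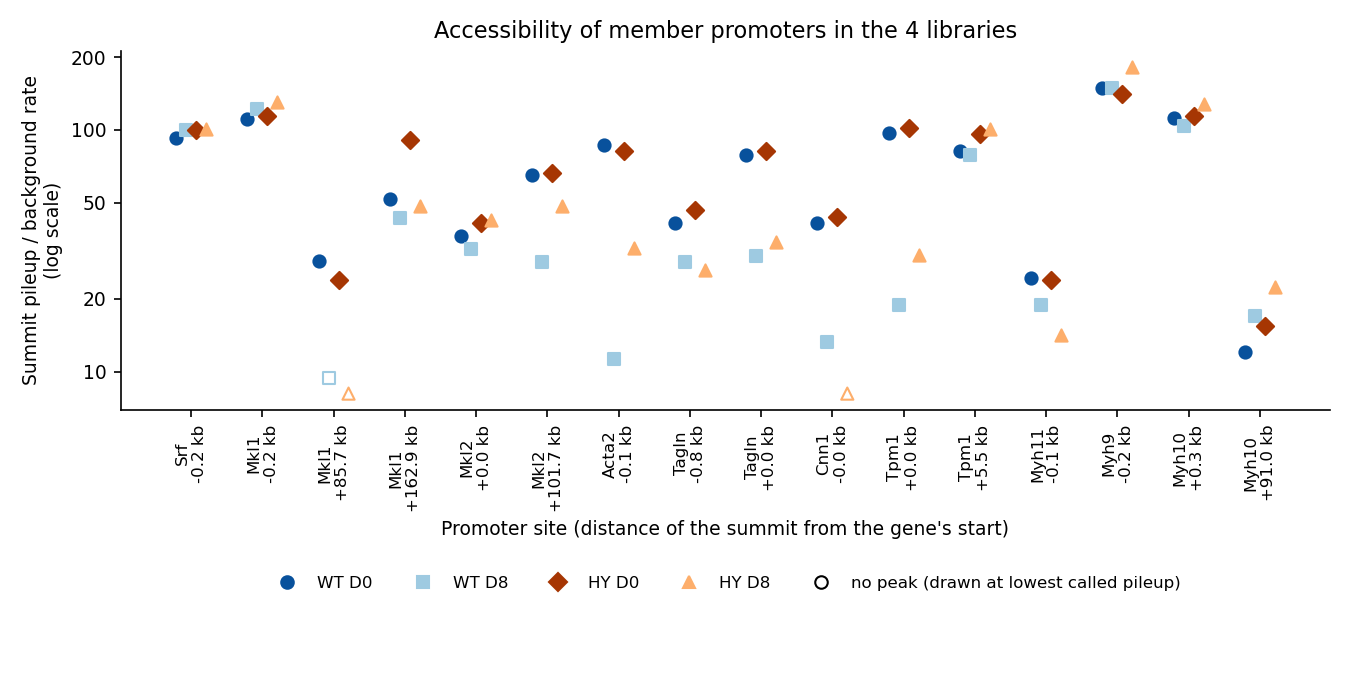
Level (summit pileup divided by the library's background rate, log scale) of the 16 promoter sites of the 10 genes in the 4 libraries, with open symbols at the lowest called pileup where a library had no peak. The D8 symbols of Acta2, Tagln, Cnn1 and Tpm1 at the gene start lie below the D0 symbols in both genotypes, whereas those of Srf, Mkl1 and Myh9 lie beside them.

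Among the regulators, Srf (chr17:46683788-46693111, minus strand) kept an open promoter. Its promoter site (chr17:46692925-46693792) had a pileup of 61 at D0 and 53 at D8 in WT cells, and 71 and 50 in HY cells. After scaling for depth the D8 level was 1.08 times D0 in WT (0.732 to 1.58) and 1.01 times in HY (0.688 to 1.47), so all 4 libraries stood close together. The Srf site with the highest D0 pileup lay in an intron 2.8 kb into the gene (chr17:46689769-46690570) and held a CArG box within 100 bases of its summit. Its pileups of 68, 43, 77 and 41 in the same order gave D8 ratios of 0.785 (0.523 to 1.17) for WT cells and 0.762 (0.509 to 1.13) for HY cells. Both D8 levels were below D0, but the intervals include no change, and on the deposited fold enrichment the log2 ratio in HY was 0.13, the other direction.

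Of the 10 Srf sites, 0 closed in both genotypes and 4 closed in 1 of them, or 2 by the local bound. Over all sites of the genome 18.7% closed in 1 genotype alone, or 12.9% by the local bound.

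Mkl1, which encodes MRTF-A, is a long gene (chr15:80842711-81021187, minus strand) with several annotated starts, and its promoters went different ways. The promoter at the gene start (chr15:81020797-81021753), shared with the noncoding gene 4930483J18Rik, had pileups of 73 at D0 and 65 at D8 in WT cells, and 81 and 64 in HY cells. Its D8 ratios were 1.11 (0.779 to 1.57) for WT cells and 1.13 (0.802 to 1.59) for HY cells, and all 4 libraries were high. In contrast, an internal promoter 85.7 kb into the gene had pileups of 19 in WT D0 and 17 in HY D0 and no peak at D8. It was 3.06-fold lower in WT and 2.97-fold lower in HY with the absent peak at the lowest called pileup, but 1.70 and 1.32-fold by the local bound, which does not pass the rule. A further internal promoter, 162.9 kb into the gene, had pileups of 34 and 23 (WT, D0 and D8) and 64 and 24 (HY, D0 and D8). HY D0 stood above the other libraries there, 1.75-fold over WT D0 (1.14 to 2.74), without reaching the 2-fold rule.

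Within the introns of Mkl1 several strong D0 sites closed. The site 53.3 kb into the gene (chr15:80967537-80968288) had pileups of 50 (WT) and 71 (HY) at D0 against 11 (WT) and 14 (HY) at D8. It fell 3.66-fold in WT (1.88 to 7.80) and 3.54-fold in HY (1.98 to 6.80), and the intervals of the genotypes overlap. On the deposited fold enrichment its log2 ratios were -0.78 and -0.80, short of the rule. At its summit, the printed window holds the AP-1 letters TGACTCA from 9 to 3 bases before the summit, overlapping the TEAD letters GGAATG. The site 84.6 kb in (chr15:80936310-80936935) had 37 at D0 and no peak at D8 in WT cells, and 48 and 16 in HY cells. It fell 5.96-fold in WT (3.31-fold by the local bound) and 2.09-fold in HY (1.17 to 3.95), with the peak at D8 present in HY alone. In HY its log2 ratio on the deposited fold enrichment was -0.53, short of the rule. In all, 13 of the 34 Mkl1 sites closed in both genotypes, 7 by the local bound, and 0 opened in both. Over all sites 13.9% closed in both, 9.42% by the local bound, and 5.82% opened in both.

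Mkl2, which encodes MRTF-B (chr16:13256574-13417622, plus strand), held its promoter at the gene start with pileups of 24 at D0 and 17 at D8 in WT cells, and 29 and 21 in HY cells. The D8 ratios were 0.879 (0.443 to 1.71) and 1.04 (0.562 to 1.88). Its highest site at D0 was a promoter 101.7 kb into the gene (chr16:13357838-13358707), with pileups of 43 at D0 and 15 at D8 in WT cells, and 47 and 24 in HY cells. It fell 2.31-fold in WT (1.26 to 4.48) and 1.37-fold in HY (0.820 to 2.34), so only the WT ratio passed the rule, and not on the deposited fold enrichment, where its log2 ratio was -0.44. The HY to WT difference at D8 did not reach 2-fold.

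Upstream of Mkl2, intergenic sites moved in both directions. The site 35.0 kb upstream had pileups of 16 in WT D0 and 17 in HY D0 and no D8 peak. The site 6.2 kb upstream had 15 and 18 at D0 and also no D8 peak. The first was 2.58-fold lower in WT and 2.97-fold in HY, with local bounds of 2.58 and 2.37. The second was 2.42-fold lower in WT and 3.14-fold in HY, with local bounds of 2.42 and 2.51, so both sites stay past the rule. Between them, the site 16.7 kb upstream (chr16:13239627-13240008) had no peak at D0 and pileups of 22 (WT) and 24 (HY) at D8. It opened 5.46-fold in WT and 6.87-fold in HY, with local bounds of 3.41 and 3.82. An adjoining site 15.9 kb upstream, with 24 and 20 (WT, D0 and D8) and 38 and 26 (HY, D0 and D8), was open on both days and held a CArG box.

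Acta2, which encodes smooth muscle alpha-actin (chr19:34315580-34329826, minus strand), had the largest fall of any member promoter in WT. Its promoter site (chr19:34328673-34330236) had pileups of 57 (WT) and 58 (HY) at D0 against 6 (WT) and 16 (HY) at D8. The D0 libraries were alike and high, and WT D8 was the lowest of the 4. The fall was 7.65-fold in WT (3.31 to 21.7) and 2.53-fold in HY (1.44 to 4.72). Among 13859 promoter sites with a WT D0 peak, 9, Acta2 included, fell at least as far, a share of 0.0649%. In HY 1618 of 14405 with a HY D0 peak, or 11.2%, fell at least as far as Acta2 did. A site with no D8 peak stands at the lowest called pileup, so a lower promoter that closed fully could not rank as far. At D8 the level of the Acta2 promoter in HY was 2.86 times that in WT (1.06 to 8.94).

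The local background around the Acta2 promoter moved with its height, from 6.72 in WT D0 and 7.41 in HY D0 to 0.576 (WT) and 1.05 (HY) at D8. On the deposited fold enrichment, which divides by that background with the constant added, the log2 ratio of the promoter was -0.76 in WT in place of -2.94. In HY it was 0.24 in place of -1.34, and HY was 1.86 times WT at D8. None of these passes the 2-fold rule, so on this measure the fall in WT is smaller and the direction in HY turns. The added constant weighs most where the background is low, as at D8 here, so these ratios are not plain enrichments over the surroundings.

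An intergenic site 10.5 kb upstream of Acta2 (chr19:34340055-34340624) had a pileup of 42 at D0 and no peak at D8 in WT cells, and 36 and 11 in HY cells. It fell 6.77-fold in WT, 4.23-fold by the local bound, and 2.29-fold in HY (1.14 to 4.98), where the deposited fold enrichment gave a log2 ratio of -0.94, short of the rule. The CArG box CCTTATAAGG covers its summit, from 2 bases before to 7 after, and the AP-1 letters TGAGTCA and the TEAD letters GGAATG follow in the printed window. At D8 the peak was called in HY alone, 2.36-fold above WT with WT at the lowest called pileup and 1.97-fold by the local bound, which does not pass the rule. Of the 13 Acta2 sites, 3 closed in both genotypes, 2 by the local bound, beside 13.9% and 9.42% of all sites.

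Tagln encodes transgelin (SM22-alpha), an actin-binding protein of smooth muscle (chr9:45737711-45744141, minus strand). Its promoter (chr9:45743411-45744342) had pileups of 52 at D0 and 16 at D8 in WT cells, and 58 and 17 in HY cells. It fell 2.62-fold in WT (1.47 to 4.91) and 2.38-fold in HY (1.37 to 4.36), and the D0 and D8 libraries did not overlap in level. Read as deposited fold enrichment, the log2 ratios were -0.41 and -0.46 and do not pass the rule. The CArG box CCATAAAAGG lies from 112 to 103 bases before the start. A neighbouring promoter peak 0.8 kb upstream had 27 and 15 (WT, D0 and D8) and 33 and 13 (HY, D0 and D8), with falls of 1.45-fold (0.744 to 2.93) and 1.77-fold (0.908 to 3.67) that did not pass the rule. In WT its log2 ratio on the deposited fold enrichment was 0.41, the other direction.

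Around Tagln, sites also opened. The intergenic site 23.7 kb upstream had no peak at D0 and pileups of 16 (WT) and 17 (HY) at D8, and opened 3.97-fold and 4.87-fold, with local bounds of 1.99 and 2.21. A site 17.6 kb upstream, in an intron of Sidt2, had 17 (WT) and 13 (HY) at D8, and opened 4.22-fold and 3.72-fold, with local bounds of 1.92 and 1.69. Only in HY, and only at the first of these sites, does the local bound pass the rule. Of the 16 Tagln sites, 4 closed and 3 opened in both genotypes, against 1 and 0 by the local bound. Over all sites 13.9% closed and 5.82% opened in both, or 9.42% and 4.55% by the local bound.

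Cnn1, which encodes calponin 1 (chr9:21903725-21914074, plus strand), had a pair of adjoining sites at its start that closed in both genotypes by pileup. The promoter (chr9:21903527-21903813) had 27 at D0 and 7 at D8 in WT cells, and 31 and no peak in HY cells. It fell 3.11-fold in WT (1.32 to 8.45) and 5.41-fold in HY, 2.16-fold there by the local bound. The deposited fold enrichment gave log2 ratios of -0.63 and -2.31. The site 0.8 kb into the gene, in an intron (chr9:21904379-21904715), had 25 in WT D0 and 30 in HY D0 and no peak at D8. It was 4.03-fold lower in WT and 5.24-fold in HY, with local bounds of 2.01 and 2.09, and the CArG box CCTTATAAGG covers its summit. The site of the window with the highest D0 pileup, 13.8 kb upstream, was the promoter of the neighbour Ecsit, with 54 and 38 (WT, D0 and D8) and 66 and 49 (HY, D0 and D8).

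Tpm1, which encodes tropomyosin 1 (chr9:66870397-66897213, minus strand), had a peak at 2 promoters, and they differed. The promoter at the gene start (chr9:66896599-66897906) had 64 at D0 and 10 at D8 in WT cells, and 72 and 15 in HY cells. It fell 5.16-fold in WT (2.63 to 11.3) and 3.35-fold in HY (1.90 to 6.30). Of promoter sites with a D0 peak in the same genotype, 0.996% fell at least as far in WT and 5.69% in HY, with the same limit on sites without a D8 peak. Its log2 ratios on the deposited fold enrichment, -0.65 and -0.12, do not pass the rule. The second promoter, 5.5 kb into the gene, had 54, 42, 68 and 50 in the same order. Its D8 ratios of 0.965 (0.629 to 1.47) and 1.05 (0.716 to 1.54) lay near 1, but on the deposited fold enrichment they were 1.61 and 2.05, of which the second passes the rule. By pileup the intervals of the pair do not overlap in either genotype.

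Distal Tpm1 sites closed as well. The intergenic site 60.2 kb past the gene start, which is nearest to the start of Lactb (chr9:66836403-66838109), had 62 at D0 and 9 at D8 in WT cells, and 63 and 11 in HY cells. It fell 5.55-fold in WT (2.74 to 12.7) and 4.0-fold in HY (2.09 to 8.42). The site 36.9 kb past the start had 43 in WT D0 and 48 in HY D0 against 8 in each D8 library, and fell 4.33-fold (2.01 to 10.7) and 4.19-fold (1.96 to 10.3). Each of these sites was higher in both D0 libraries than in either D8 library. Read as deposited fold enrichment, neither passed the rule, with log2 ratios of -0.77 and -0.51 at the first and -0.99 and -0.73 at the second in WT and HY. An intronic site 4.2 kb in, with 33 in WT D0, 32 in HY D0 and no D8 peak, was 5.32-fold and 5.59-fold lower, but its local bounds were 1.27 and 1.02. Of the 16 Tpm1 sites 7 closed in both genotypes, 3 by the local bound, beside 13.9% and 9.42% of all sites.

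Myh11, the smooth muscle myosin heavy chain (chr16:14194620-14291501, minus strand), had sites that opened and none that closed in both genotypes. Its promoter was low in every library, with pileups of 16 at D0 and 10 at D8 in WT cells, and 17 and 7 in HY cells, and falls of 1.29-fold (0.550 to 3.18) and 1.70-fold (0.668 to 4.84). A site in its intron 32.4 kb into the gene (chr16:14258753-14259369) had 21 (WT) and 21 (HY) at D0 against 51 (WT) and 44 (HY) at D8. It opened 3.01-fold in WT (1.78 to 5.28) and 3.00-fold in HY (1.75 to 5.31), but on the deposited fold enrichment its log2 ratios were 0.68 and 0.42, short of the rule. A site 17.0 kb upstream, in an intron of the neighbour 0610037P05Rik (chr16:14308327-14308854), had no peak at D0 and 35 (WT) and 33 (HY) at D8. It opened 8.69-fold and 9.45-fold, with local bounds of 5.43 and 5.91. These were the 2 of 9 Myh11 sites that opened in both genotypes, and 0 closed in both, beside 5.82% and 13.9% of all sites.

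Myh9, the non-muscle myosin IIA heavy chain (chr15:77591017-77672605, minus strand), had a promoter that was not called. The promoter (chr15:77672078-77673285) had 98 at D0 and 79 at D8 in WT cells, and 100 and 90 in HY cells. Its D8 ratio was 1.00 (0.734 to 1.36) for WT cells and 1.29 (0.959 to 1.73) for HY cells. Around it, 18 of 42 sites closed in both genotypes (42.9%), beside 43.8% of the Tpm1 sites and 13.9% of all sites. Counted by the local bound, 5 Myh9 sites closed in both (11.9%), against 7 of the 34 Mkl1 sites (20.6%) and 3 of the 16 Tpm1 sites (18.8%), beside 9.42% of all sites. The median local background at Myh9 peaks was 4.55 (WT) and 4.28 (HY) at D0, against 1.15 and 1.16 over all sites. At D8 it was 1.63 (WT) and 2.01 (HY), against 1.13 and 0.927. For a site with no D8 peak the local bound uses the D0 background scaled for depth, and the D8 background there was not measured.

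The intergenic site 40.8 kb upstream of Myh9 (chr15:77713185-77713839) had 64 at D0 and 16 at D8 in WT cells, and 71 and 21 in HY cells, and fell 3.22-fold (1.84 to 5.97) and 2.36-fold (1.43 to 4.05). Its deposited fold enrichment gave log2 values of -0.26 (WT) and 0.10 (HY). The site 46.3 kb upstream (chr15:77718689-77719150) had 50 in WT D0 and 54 in HY D0 and no D8 peak, and was 8.06-fold and 9.43-fold lower, with local bounds of 2.88 and 2.69. Both intergenic sites are nearer to the start of Txn2 than to that of Myh9. On the other side, the site 100.4 kb past the start fell from 42 to 7 in WT and from 51 to 7 in HY, which was 4.83-fold (2.15 to 12.8) and 5.09-fold (2.30 to 13.3). Sites 9.5 kb and 66.7 kb into the gene opened in both genotypes from no D0 peak, with pileups of 12 and 11 in WT D8 and 13 and 15 in HY D8. By the local bound their ratios were 1.65 and 1.95 in WT and 1.86 and 2.69 in HY.

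Myh10, the non-muscle myosin IIB heavy chain (chr11:68505061-68630134, plus strand), also had an open promoter on both days. The promoter (chr11:68504889-68506105) had 74 at D0 and 55 at D8 in WT cells, and 81 and 63 in HY cells, with D8 ratios of 0.923 (0.639 to 1.33) and 1.11 (0.788 to 1.57). An internal promoter 91.0 kb in was low throughout, with 8, 9, 11 and 11 in the same order. Of the 20 Myh10 sites 1 closed in both genotypes (5.00%, beside 13.9% of all sites). This site, 25.9 kb upstream, had 14 in WT D0 and 14 in HY D0 and no D8 peak. Its falls of 2.26-fold and 2.44-fold became 1.88 and 1.96 by the local bound.

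The member site with the largest opening lay in an intron 42.0 kb into Myh10 (chr11:68546887-68547343). It had no peak at D0 and pileups of 54 (WT) and 56 (HY) at D8, so that both D8 libraries were high and alike. It opened 13.4-fold in WT and 16-fold in HY, and 7.45-fold and 8.02-fold by the local bound. Of all opened sites, 38 of 7995 in WT (0.475%) and 55 of 11176 in HY (0.492%) had a higher D8 pileup. The printed window is a tandem repeat, in which 96.3% of bases equal the base 44 positions further on. No other of the 202 member sites reached 80%, the next being 75.2% and the median 36.1%, and how reads from such copies were placed was not tested.

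**Figure D2:**
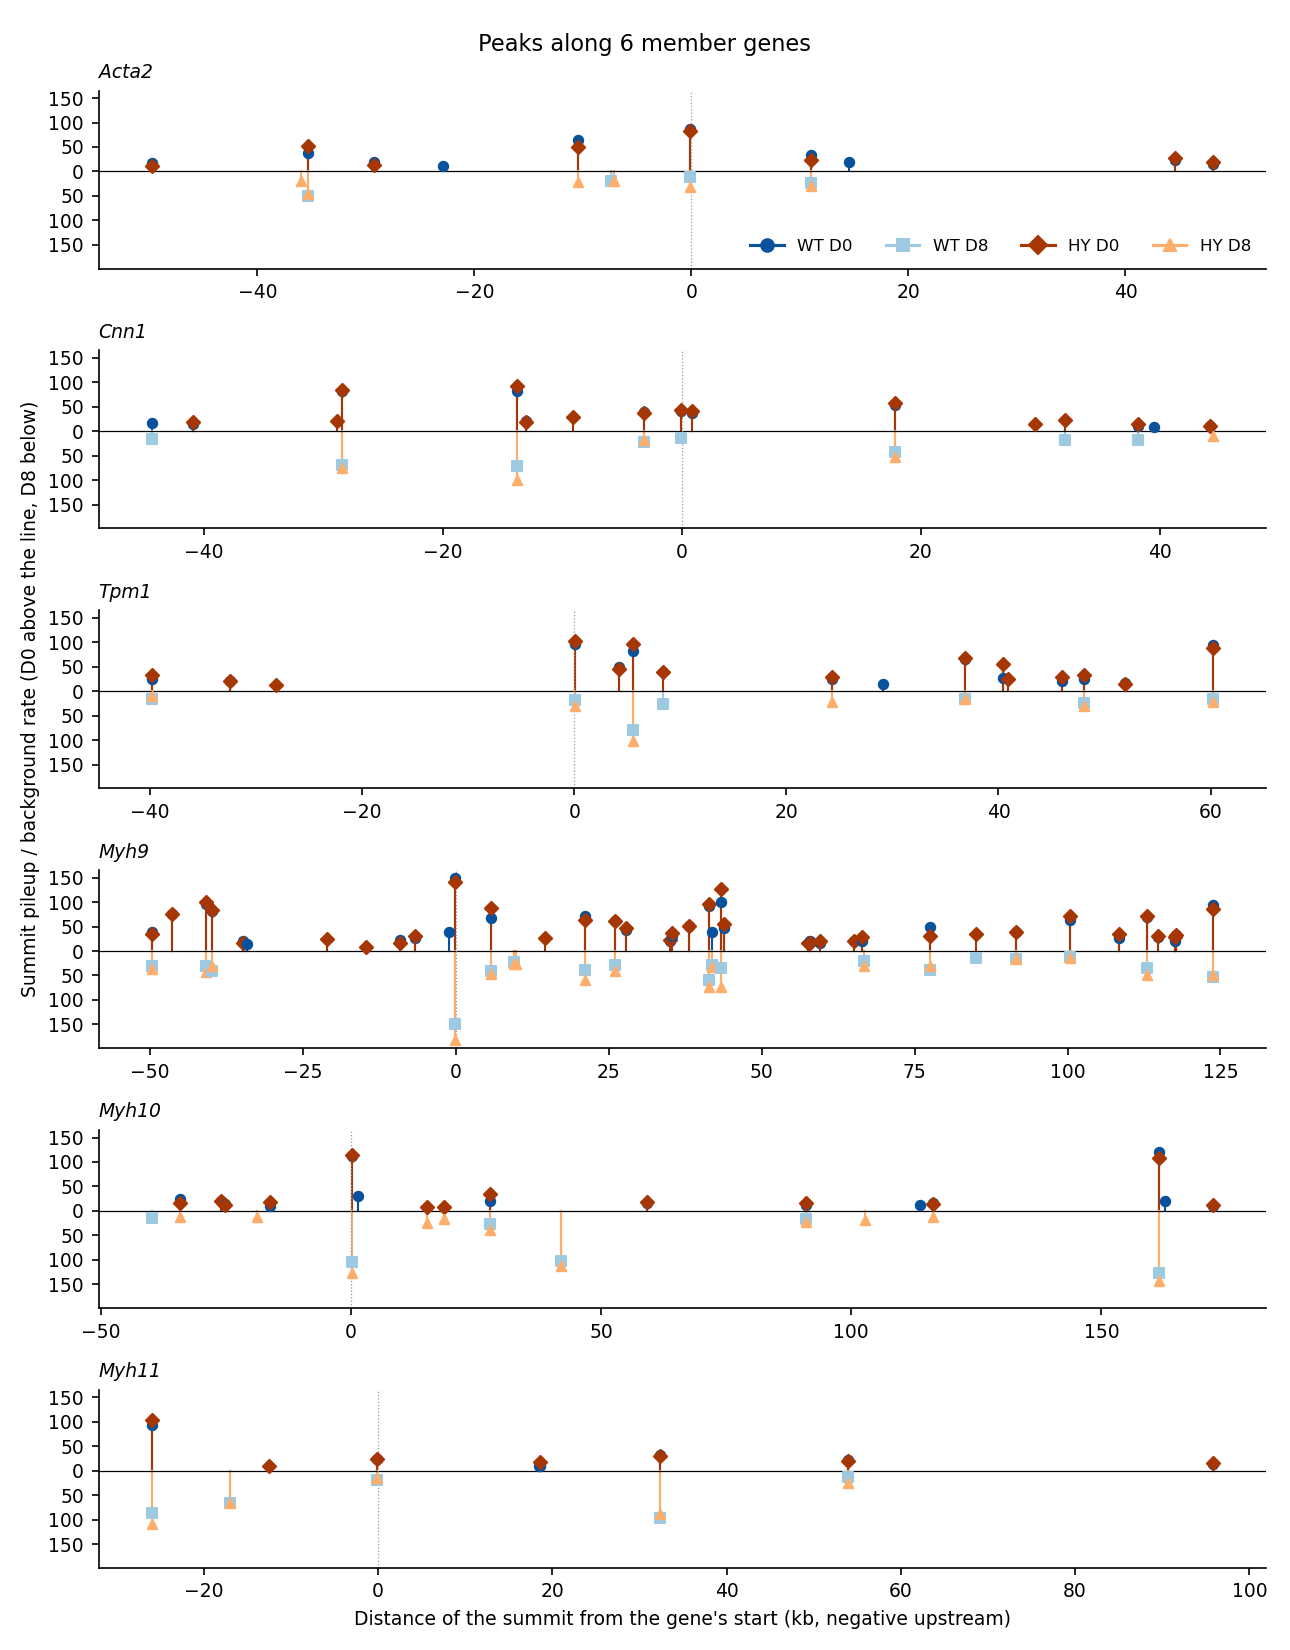
Level of each peak along Acta2, Cnn1, Tpm1, Myh9, Myh10 and Myh11, against the distance of its summit from the gene's start in kb (negative upstream), with the D0 libraries above the line and the D8 libraries below it. The tall D0 peaks at the start of Tpm1 and Acta2 have short D8 counterparts, while the promoters of Myh9 and Myh10 are as tall on both days and the site 42.0 kb into Myh10 is seen at D8 only.

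Over all 10 genes, fewer sites had a peak at D8 (80 in WT and 90 in HY) than at D0 (155 and 161). The D8 number was 51.6% of the D0 number in WT and 55.9% in HY, beside 53.8% and 58.8% over all sites of the genome. A peak in all 4 lists was found at 58 sites (28.7%, beside 24.2% of all sites), in both D0 lists and neither D8 list at 63 (31.2%, beside 24.6%), in both D8 lists and neither D0 list at 9 (4.46%, beside 5.99%), and in 1 list at 49 (24.3%, beside 32.9%). In WT, 69 of 171 sites with a peak on either day closed, or 40.4%, against 26.5% of all sites in the genome. In HY, 84 of 180 closed, or 46.7%, against 29.4%. The members were chosen with these changes known, so nothing is read from the excess.

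That excess was also not seen under the local bound. By it 33 sites closed in WT, 19.3% against 19.5% of all sites, and 34 in HY, 18.9% against 18.9%. The median local background over the member peaks of each list was 1.95 at D0 and 1.35 at D8 in WT cells, and 2.21 and 1.41 in HY cells, against 1.15, 1.13, 1.16 and 0.927 over all sites.

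Opened sites were fewer. In WT 14 of the 171 sites opened, or 8.19% beside 10.3% of all sites, and in HY 19 of 180, or 10.6% beside 12.6%. By the local bound 8 opened in WT (4.68% beside 7.84%) and 11 in HY (6.11% beside 10.2%). Across the 202 sites, 52 closed in both genotypes (25.7% beside 13.9%) and 9 opened in both (4.46% beside 5.82%). By the local bound these became 22 (10.9% beside 9.42%) and 4 (1.98% beside 4.55%).

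**Figure D3:**
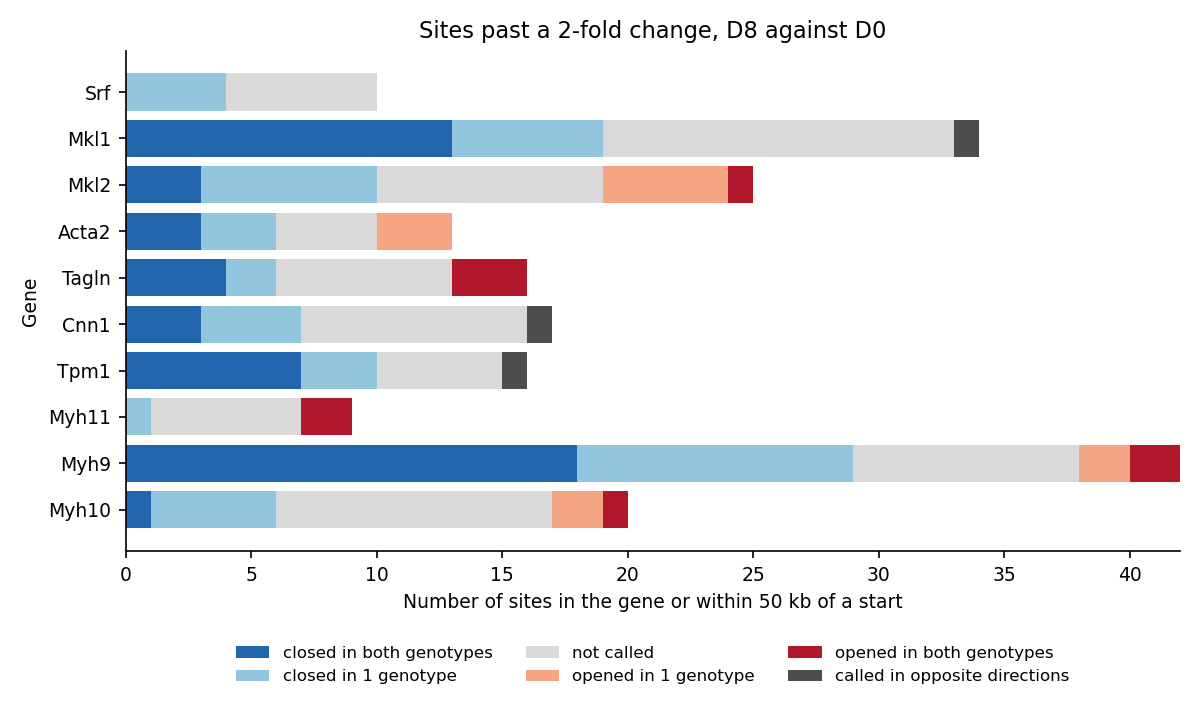
Number of sites of each gene that closed in both genotypes, in 1 genotype, were not called, opened in 1 genotype, opened in both, or were called in opposite directions, by the 2-fold rule at D8 against D0 with absent peaks at the lowest called pileup. By this rule Myh9 with 18 and Mkl1 with 13 have the most sites closed in both genotypes, and Srf and Myh11 have 0.

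By role, the counts of closed sites ran as follows. Of sites tested in WT, 22 of 58 around the regulators closed (37.9%), 20 of 60 around the smooth muscle genes (33.3%) and 27 of 53 around the non-muscle myosins (50.9%). In HY the corresponding counts were 28 of 60 (46.7%), 29 of 64 (45.3%) and 27 of 56 (48.2%). Over all sites 26.5% closed in WT and 29.4% in HY. This order did not hold by the local bound: 13 of the regulators' sites closed in WT (22.4%), 11 of the smooth muscle genes' (18.3%) and 9 of the non-muscle myosins' (17%), and in HY 12 (20%), 14 (21.9%) and 8 (14.3%). The all-site shares by the local bound were 19.5% in WT and 18.9% in HY. The median log2 ratio of the tested member sites was -0.79 in WT and -0.94 in HY, against -0.44 and -0.48 over all sites.

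Restricting to sites with a peak in all 4 lists removes the absent peaks from the comparison. The 58 such member sites had a median log2 ratio of -0.42 in WT and -0.23 in HY, against -0.16 and -0.08 for the 24369 such sites of the genome. The choice of the members used these same heights, so nothing is read from this difference either.

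**Figure D4:**
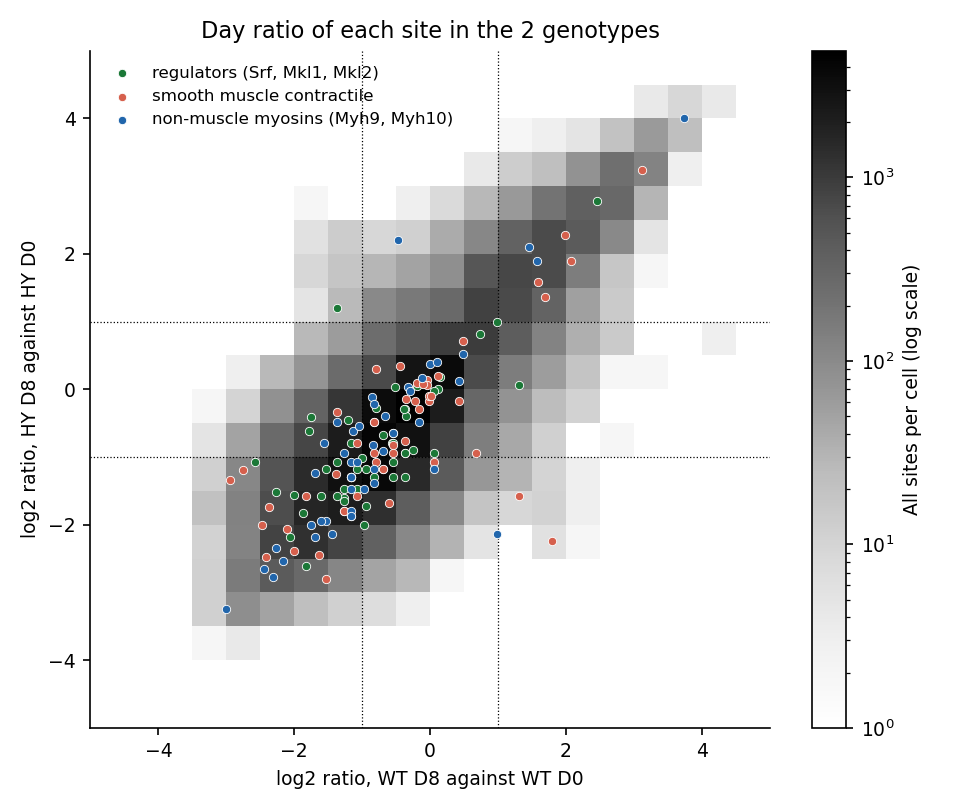
The log2 ratio of D8 to D0 in HY against that in WT for member sites with both ratios, coloured by role, over the density of all sites (grey, log scale), with dotted lines at 2-fold. Of 149 member sites, 107 have both ratios below 0 (71.8%, beside 63.3% of all sites), and the Myh10 site 42.0 kb into the gene is at the upper right.

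Sites called in WT were often called in HY. Of the member sites closed in WT, 75.4% also closed in HY, against 67.8% over the genome, and of those closed in HY 61.9% also closed in WT, against 53.4%. For opened sites the shares were 64.3% and 47.4%, against 73.2% and 52.4%.

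Before differentiation, none of the 16 own promoter sites was called between HY D0 and WT D0, beside 4.79% of all promoter sites higher and 3.00% lower in HY. Among 182 sites with a D0 peak in either genotype, 20 were higher in HY (11% beside 8.21% of all sites) and 11 lower (6.04% beside 5.36%). By the local bound 6 were higher (3.30% beside 4.51%) and 0 lower (0% beside 2.74%). The intergenic Tpm1 site 40.4 kb past the gene start was one of the called sites with a peak in both libraries, with 18 in WT D0 and 40 in HY D0, a ratio of 2.07 (1.16 to 3.83), or 1.62 on the deposited fold enrichment, and median scaling takes it below the rule. The median log2 difference was 0.09 over member sites and 0.13 over all sites.

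At D8 the balance of sites higher and lower in HY depended on the measure and its scaling. Of 101 sites with a D8 peak in either genotype, 12 were higher in HY (11.9% beside 7.13% of all sites) and 5 lower (4.95% beside 4.99%). With the libraries scaled by their median ratio, 6 were higher (5.94% beside 4.9%) and 8 lower (7.92% beside 7.0%). On the deposited fold enrichment 21 were higher (20.8% beside 26.4%) and 11 lower (10.9% beside 9.63%). With the local bound 7 were higher (6.93% beside 3.47%) and 1 lower (0.990% beside 1.33%). The higher sites by the local bound were the Acta2 promoter, Mkl1 sites 14.9 kb, 84.6 kb and 120.0 kb into the gene, Mkl2 158.3 kb, Myh9 43.4 kb and Myh10 15.2 kb into the gene. Among 69 sites with a peak in both D8 lists, the level was higher in HY at 54 (78.3%), beside 67.5% of the 32039 such sites of the genome. The scale itself leaned that way, since the median D8 difference over sites in all 4 lists was 0.16 on the log2 scale for the genome and 0.27 for the members.

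The D8 values at these sites followed 2 forms. The intronic Myh9 site 43.4 kb in (chr15:77628957-77629728) had 66 at D0 and 18 at D8 in WT cells, and 89 and 36 in HY cells. It fell 2.95-fold in WT (1.73 to 5.29) and 1.73-fold in HY (1.16 to 2.62), and at D8 it was 2.15-fold higher in HY (1.19 to 4.02). The deposited fold enrichment gave 1.43-fold at D8, and a log2 ratio of -0.38 in WT, both short of the rule. The Mkl1 site 14.9 kb in had 34, 8, 33 and 15, with a D8 ratio of 2.01 whose interval reaches below 1 (0.802 to 5.49), and 1.66 on the deposited fold enrichment. Median scaling, which lowers D8 differences by 0.15 on the log2 scale, also takes both sites below the rule. The others, apart from the Acta2 promoter, lacked a WT D8 peak and had pileups of 10 to 16 in HY D8. Their D8 ratios on the deposited fold enrichment, again with no measured WT value, were 5.31 (Mkl1 84.6 kb), 4.57 (Mkl1 120.0 kb), 4.70 (Mkl2 158.3 kb) and 5.68 (Myh10 15.2 kb).

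**Figure D5:**
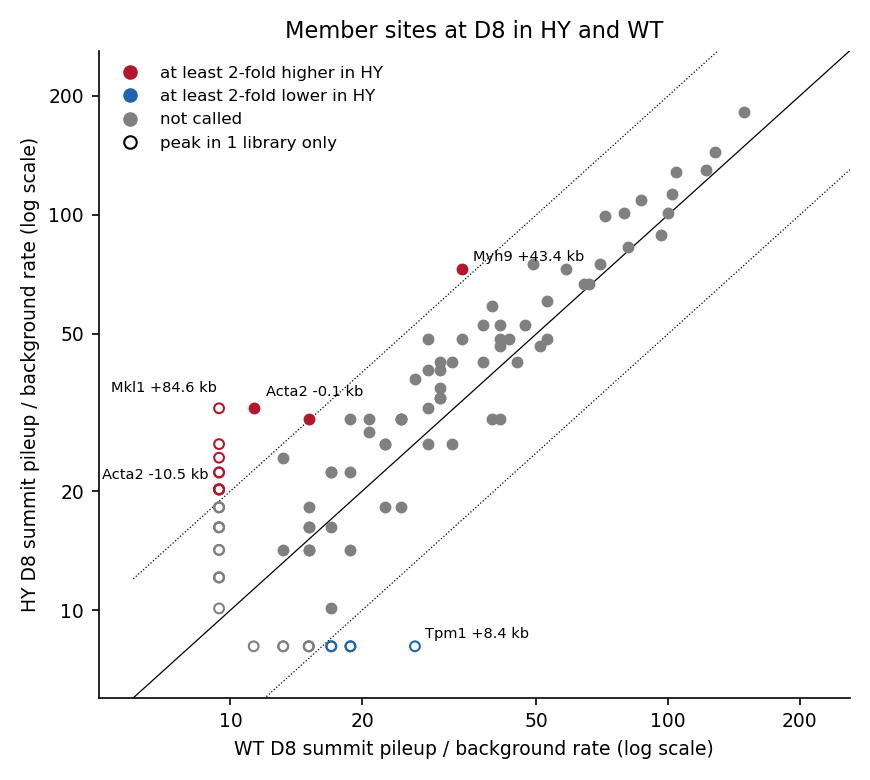
Level in HY D8 against level in WT D8 for the 101 member sites with a D8 peak (both axes log scale), with the diagonal, dotted lines at 2-fold, and open symbols at the lowest called pileup where 1 library had no peak. Red points, among them the Acta2 promoter and the Myh9 site 43.4 kb into the gene, are at least 2-fold higher in HY.

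Letters of CArG boxes were found more often at member sites than over the genome. A box was counted as CC, then 6 letters each A or T, then GG, on either strand within 100 bases of the summit of a site's strongest peak. It was present at 9 of 202 member sites (4.46%) and at 1504 of 100608 sites (1.49%). Of member sites closed in both genotypes 4 of 52 had one (7.69%, beside 2.43% of all such sites), and of those opened in both 0 of 9 (beside 0.940%). Member sites with a peak in all 4 lists and no call held one as often as closed sites, 3 of 38 (7.89%, beside 1.09%). The 9 sites were Srf +2.8 kb, Mkl2 -15.9 kb, Acta2 -10.5 kb, the Tagln promoter, Cnn1 +0.8 kb, Tpm1 +8.4 kb and Myh9 +26.0, +27.9 and +41.4 kb. These genes include textbook SRF targets, so the presence of boxes there is not independent of how the genes were named.

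The Myh9 sites with a box, all intronic, differed among themselves. The site 26.0 kb in had 41 at D0 and 15 at D8 in WT cells, and 44 and 20 in HY cells, with falls of 2.20-fold (1.19 to 4.28) and 1.54-fold (0.887 to 2.75). The WT call was lost on the deposited fold enrichment, with log2 ratios of -0.27 and -0.05. The site 27.9 kb in had 28 in WT D0 and 33 in HY D0 and no D8 peak, with falls of 4.51-fold and 5.76-fold that were 1.88 and 1.92 by the local bound. The site 41.4 kb in had 61, 31, 68 and 36, with falls of 1.59-fold (1.01 to 2.53) and 1.32-fold (0.868 to 2.03). Its direction turned in both genotypes on the deposited fold enrichment, where the log2 ratios were 0.54 and 0.40.

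Among the 200 bases before a gene's start, a box was present in 237 of 22367 promoters of the reference (1.06%) and in 2 of the 10 members. Srf had a pair, from 82 to 73 and from 62 to 53 bases before its start, and Tagln had 1. Allowing 1 of the 6 middle letters to be C or G, a form chosen after seeing the sequences, gave 1520 promoters (6.80%) and 4 of the 10 members. It added Acta2, with CCCTATATGG from 121 to 112 and CCTTGTTTGG from 71 to 62 bases before the start, and Mkl1 with CCTAAATCGG. The promoter with a pair of exact boxes, Srf, did not change by the rule, and that of Tagln, with 1, closed.

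The other motifs were near their genomic shares. AP-1 (TGANTCA) was present at 24.8% of member sites and 22% of all sites, TEAD (GGAATG) at 18.8% and 17.2%, the PPARG hexamer (AGGTCA) at 14.9% and 13.7%, C/EBP (TTNNGNAA) at 32.2% and 36.1%, and EBF (CCCNNGGG) at 8.42% and 9.76%. All were read on both strands in the same window, and matches to different motifs may overlap. At sites closed in both genotypes AP-1 was present at 23.1% of the members' and 36.3% of all. At the 38 member sites with a peak in all 4 lists and no call, AP-1 was present at 21.1% (beside 11.8% of all such sites) and TEAD at 26.3% (beside 10.7%). There C/EBP was present at 36.8% (beside 25.2%), EBF at 13.2% (beside 12.8%) and the PPARG hexamer at 5.26% (beside 10.1%). Of the 9 member sites opened in both, 5 had C/EBP letters (55.6%), as did 56.1% of all such sites. A match is a string of letters and does not show that a factor was bound.

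A wider list of 40 genes of the SRF pathway and the actin cytoskeleton, holding none of the 10, gave 665 sites. In WT 195 of 547 tested sites closed (35.6%, beside 26.5% of all sites) and 47 opened (8.59%, beside 10.3%). In HY 223 of 590 closed (37.8%, beside 29.4%) and 62 opened (10.5%, beside 12.6%). In both genotypes 138 closed (20.8%, beside 13.9% of all sites) and 26 opened (3.91%, beside 5.82%), or 68 (10.2%, beside 9.42%) and 17 (2.56%, beside 4.55%) by the local bound. The median log2 ratios were -0.58 and -0.65, against -0.44 and -0.48 over all sites.

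Of this list, Cald1, encoding caldesmon, had 11 sites closed in both genotypes, and Cnn2, Elk3 and Pdlim7 had 8 each. Sites opened in both numbered 3 each for Elk4, a ternary complex partner of SRF, and Mylk, myosin light chain kinase, and 2 each for Csrp1, Lmod1, Vcl and Actg1. The promoter closed in both genotypes in 6 of 35 list genes with a promoter peak, Cald1, Elk3, Fhl2, Myl9, Lmod1 and Actg2, and opened in both in 0. Of all promoter sites of the genome, counted by site and not by gene, 7.95% closed in both. Myl9, the regulatory light chain of smooth muscle myosin, had promoter pileups of 56 at D0 and 14 at D8 in WT cells, and 54 and 14 in HY cells. Cald1 had 56, 16, 67 and 19 in the same order, and Fhl2, a LIM protein of the SRF pathway, had 53, 11, 59 and 16. In each of these genes both D0 libraries were above both D8 libraries.

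Marker promoters were read to check the cell type. Of 8 adipocyte markers, a promoter peak was present for 3 in each D0 library and 7 in each D8 library, Ucp1 being the one without a peak in any. Of 8 preadipocyte markers, 7 had one in WT D0, 4 in HY D0 and 2 in each D8 library. Those with one in WT D0 and not in HY D0 were Pdgfra (pileup 50), Dlk1 (7) and Pi16 (10). Skeletal muscle (5 genes), immune (6) and mesothelial (4) markers had 0 in every library, and of 5 endothelial markers 3 had one at D0 and 0 at D8 in WT cells, and 2 and 1 in HY cells.

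Smooth muscle genes are also expressed by mural cells, the pericytes and smooth muscle of vessels. Of 6 mural markers, a promoter peak was present for 2 and 1 in WT at D0 and D8, and for 1 and 2 in HY. Of these, Rgs5, Cspg4, Kcnj8 and Abcc9 had no promoter peak in any library. Notch3 had pileups of 13 and 11 (WT, D0 and D8) and 16 and 11 (HY, D0 and D8), and Mcam had 11 in WT D0 and 43 in HY D8. A peak list sums over all cells of a culture, so fewer cells with an open site and a less open site in each cell cannot be told apart.

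The outermost sites inside 50 kb were at Myh9, 49859 bases from a start with a HY D0 pileup of 25 and 49860 bases from one with a HY D8 pileup of 18. The nearest left out were peaks of WT D8 at 50324 bases from Srf, with a pileup of 10, and at 50473 bases from Mkl2, with a pileup of 7.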

How the data were processed

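ATAC-seq peak lists of 4 libraries, 1 per group, were analysed. Per the labels and the study's methods, the authors trimmed adapters, aligned reads to mm9 with Bowtie2, sorted the alignments with SAMtools, removed duplicates with Picard and made tracks with deepTools. For ChIP-seq, said to share the procedure, HOMER and MACS3 are named as peak callers, and which made these lists, its version, its threshold and any transposase shift are not given in the sources used here. The authors deposited, for each peak, a score, a fold enrichment, -log10 p, -log10 q and a summit position. The deposited fold and -log10 p were solved for the whole-number pileup and local background, which returned both deposited values within 0.002 for 100% of peaks, and the lowest local background of a list was taken as its depth. Peaks overlapping by at least 1 base were merged into sites across lists.

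The member genes, gene lists, motifs and rules were chosen with earlier results of these data known. For each gene the text names its promoter sites, its strongest site, up to 2 sites per direction called in both genotypes, and every site called in opposite directions, and other sites were named after their values were seen. No site was tested, since no group had replicates. Intervals are exact conditional (Clopper-Pearson) intervals at 95%. Alternatives were a 50% overlap, summits within 150 bases, lists cut to q of at least 5 or to 41228 peaks, median scaling, the deposited fold, a 20 kb window, a 3-fold rule and, added after seeing the data, the local bound. Genes, starts and sequences came from the NCBIM37 assembly with GENCODE vM1, and no peak lay beyond the end of a chromosome. Computation used Python 3.11.15, pandas 2.3.3 and SciPy 1.17.1, and the steps were tested on simulated peaks.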

Additional observations from a re-analysis of the deposited data

Results flagged for a closer look

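At 3 member sites the genotypes were called in opposite directions between D0 and D8, and the difference between the genotypes was not tested. The Mkl1 site 88.1 kb into the gene, in an intron, had a pileup of 16 in WT D0, no peak in WT D8 or HY D0 and 8 in HY D8, with a log2 ratio of -1.37 in WT and 1.20 in HY. The Cnn1 site 32.1 kb past the gene start, which is the promoter of the neighbour Acp5, had 10 in WT D8 and 17 in HY D0 and no other peak, with 1.31 in WT and -1.57 in HY. The Tpm1 site 8.4 kb into the gene, which holds a CArG box, had 14 in WT D8 and 27 in HY D0 and no other peak, with 1.80 in WT and -2.24 in HY. By the local bound none of the 3 kept calls in both directions. On the deposited fold enrichment, which here also rests on absent peaks, all 3 kept them. Its log2 ratios in WT and HY were -1.75 and 1.59 (Mkl1), 1.78 and -2.66 (Cnn1) and 1.34 and -1.15 (Tpm1).

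The last pair also changed order between the days. The log2 difference of HY from WT was 1.66 at D0 and -1.22 at D8 for the Cnn1 site, and 2.33 at D0 and -1.70 at D8 for the Tpm1 site. Every one of these values rests on absent peaks set at the lowest called pileup, and the change between days was not tested.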

How the results depend on the processing

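Counts of called sites and day ratios of named sites were recomputed under each alternative, and the 2 were judged by different criteria. Of 612 recomputed day ratios at the 53 sites named in the text or at a member's own promoter, 575 kept within their interval or had no interval, 35 moved past it and 2 that had been called changed sign. Of the others, 13 that were not called crossed 0, 10 of them on the deposited fold and 3 with median scaling. A ratio resting on an absent peak has no interval and could not be counted as moved, so the 575 is not a measure of stability. At Mkl1 +85.7 kb in HY, for example, the log2 ratio went from -1.57 to -0.40 by the local bound and is among the 575. With q of at least 5, lists of equal length, a 3-fold rule and the local bound in turn, sites closed in WT went from 69 to 33, 45, 29 and 33, and opened from 14 to 7, 5, 8 and 8. In HY, closed went from 84 to 33, 36, 37 and 34, and to 53 with a 20 kb window, and opened from 19 to 6, 6, 10 and 11. Sites higher in HY at D0 went from 20 to 10, 5, 11 and 6, and lower from 11 to 2, 2, 5 and 0, to 19 with matched summits and to 18 with the deposited fold. At D8, higher went from 12 to 5 (q), 6 (median scaling), 21 (deposited fold), 1 (3-fold) and 7 (local bound). Lower at D8 went from 5 to 8 (50% overlap), 11 (summits), 0 (q), 3 (equal length), 8 (median scaling), 11 (deposited fold), 3 (20 kb), 1 (3-fold) and 1 (local bound). Sites with a peak went from 155 to 89 (equal length) and 97 (20 kb) in WT D0, and from 161 to 92 and 103 in HY D0. The 2 called ratios that changed sign, both on the deposited fold, were those of the Acta2 promoter in HY (0.24) and of Myh9 -40.8 kb in HY (0.10). On the deposited fold 36 of the 52 member sites closed in both genotypes kept both calls, and 52.6% of member sites closed in WT and 51.1% in HY, beside 54.6% and 53.1% of all sites. Where both libraries had a peak the cause was not tested. The drop under the local bound follows from its construction, as does that with fewer peaks or a stricter rule. Median scaling moved all log2 ratios by 0.16 in WT, 0.09 in HY, -0.08 at D0 and -0.15 at D8. No fit of day with genotype as a block was run, since each group held 1 library and sites without a peak have no measured level. Depth limits these lists, since a pileup under 5, or 4 in HY D8, was never called.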
